A study of Mus musculus with 6 samples.

Results

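Clustered Gli3 sites are binding sites of the transcription factor Gli3 that lie close to others of their kind in the embryonic mouse cortex. They were chosen on their positions alone: a site on chromosomes 1 to 19 was a member when at least 2 other sites had their midpoints within 50 kb of its own. Of the 4028 Gli3 sites on these chromosomes, 524 met the rule, which is 13% (the whole list held 4114 sites). The list used here is shorter than the set of sites the study describes, and since a site that is not listed cannot count as a neighbour, membership and the comparisons with other sites hold for the listed sites. Members chained by the same distance formed 147 clusters. The list came from chromatin immunoprecipitation and sequencing (ChIP-seq) with an antibody to Gli3 on cerebral cortex of wild-type mice at embryonic day 15, with 3 Gli3 ChIP libraries and 3 libraries of input DNA, made from the same kind of chromatin without the antibody step. All libraries came from the same genotype and stage, so that the study offers no second condition here. The whole cortex was used, which mixes progenitors, neurons and other cells. The authors deposited 1 joined list with a chromosome, start, end and name for each site and no height or score, so that the read depth and the variation between replicates are unknown, and every site counts alike.

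Gli3 is a zinc-finger protein at the end of the Hedgehog pathway. When no Hedgehog ligand reaches a cell, Gli3 is processed to a form that represses its target genes, and a ligand such as Sonic hedgehog relieves this repression through the receptor Ptch1 and the membrane protein Smo. In the dorsal telencephalon, Gli3 is known for holding back ventral fates and for patterning the cortex. Gli proteins bind a short DNA motif, whose core GACCACCCA was searched on both strands and is called the GLI core below.

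Among 524 members, 55 held the GLI core, 62 copies in all. The 3 cores of the *Ptch1* cluster are shown first, since *Ptch1* encodes the Hedgehog receptor and these stretches carry the known binding motif of Gli3. The core is in capitals, with 10 bases on each side, 5′ to 3′ on the strand that reads it, in GRCm38 (mm10). Each of the 3 lay in a different member.
Ptch1, chr13:63573465-63573473, minus strand, in the site over the gene's start: tggcgcggcaGACCACCCAcgccgagggc
Ptch1, chr13:63569285-63569293, minus strand: cctcagccctGACCACCCAagtcgagcag
Ptch1, chr13:63566435-63566443, plus strand: aaagtagagaGACCACCCAggtaggcaac

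The cores of 2 intergenic clusters upstream of *Ptch1*, and those at other genes described below, read as follows.
Intergenic, chr13:63901500-63901508, minus strand: accaaagctgGACCACCCAcggcgtcacg
Intergenic, chr13:63988535-63988543, minus strand: aataaacagaGACCACCCAaggagagcaa
Intergenic, chr13:64003311-64003319, plus strand: tcttcacagaGACCACCCAcatggctggg
Boc, chr16:44552156-44552164, plus strand, intron: tattgtccaaGACCACCCActggaaatag
Gse1, chr8:120370393-120370401, minus strand, intron: ctccctgctgGACCACCCAtgtggtgacg
Gse1, chr8:120485035-120485043, minus strand, intron: taggaaactgGACCACCCAggaaccatcc
Wnt7b, chr15:85582217-85582225, plus strand, promoter: aagagagagaGACCACCCAccaccatctc
Fgfr3, chr5:33725995-33726003, minus strand, intron: gtcctatgggGACCACCCAgtgctggaag
Fgfr3, chr5:33726329-33726337, plus strand, in the same site: tgcttagcagGACCACCCActcctgtcct

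The 59 contexts that were read were all different from one another. The base after the core was G in 26 of the 59 and C in 23. The closest pair of cores within 1 site lay in *Irs1*, which encodes an adaptor of the insulin receptor, with 290 bp between the starts of its 2 cores. The stretch from the first to the last base of this pair, chr1:82262212-82262510 on the minus strand, is shown because no other member held 2 cores as close together.
Irs1, intron: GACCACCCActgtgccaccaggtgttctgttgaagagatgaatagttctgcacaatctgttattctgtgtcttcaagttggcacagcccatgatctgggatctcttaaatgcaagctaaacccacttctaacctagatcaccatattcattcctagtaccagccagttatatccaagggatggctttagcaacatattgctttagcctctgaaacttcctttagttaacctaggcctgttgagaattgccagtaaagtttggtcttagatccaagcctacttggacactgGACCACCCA

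Most clusters were small. There were 60 clusters of 3 members, 21 of 4 and 10 of 5, and 18 clusters of 6 or more held 166 of the 524 members. A further 32 clusters had 1 member and 6 had 2, because a site in the middle of a row can have 2 neighbours that do not themselves meet the rule. Altogether 99 sites that were not members lay within 50 kb of one. The 109 clusters of 3 or more members spanned 9.36 to 297 kb, with a median of 44.7 kb, and sites made up 4.74% to 70.1% of their spans.

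**Figure D1:**
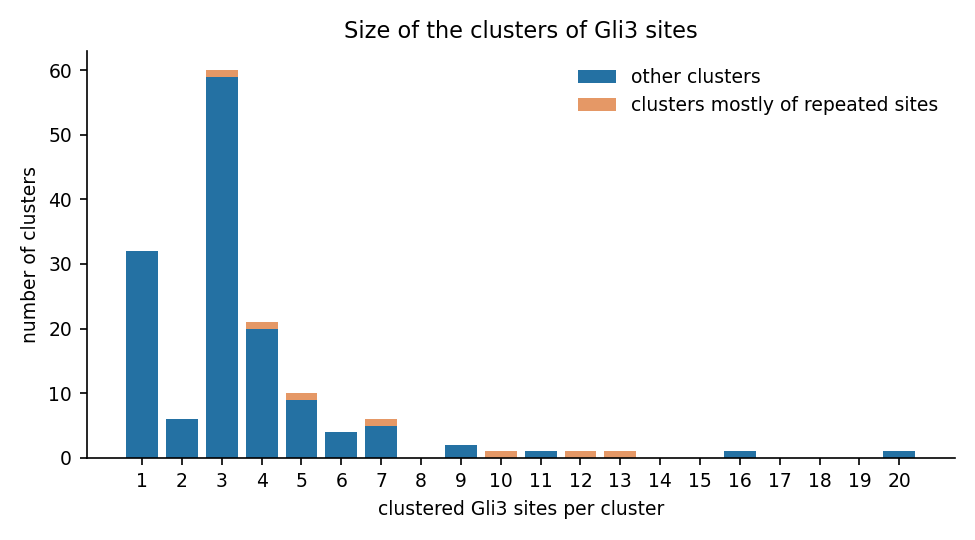
Number of clusters (vertical axis) by the number of clustered Gli3 sites they hold (horizontal axis), with clusters made mostly of repeated sequence in orange. The 60 clusters of 3 members are the most frequent size, and of the 6 clusters of 10 or more members 3 are mostly repeated sequence.

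The distance from a member's midpoint to its second nearest site is what the rule used, and it is given as a description only. Its median was 23.3 kb for members and 330.2 kb for the 3504 other sites on chromosomes 1 to 19. Just inside the threshold were 2 intronic sites near *Lingo1*, at 49774.5 bp, and an intergenic site near *Acot11*, at 49814.5 bp. Just outside it were 2 sites near *Irf2bp2* and *Tarbp1*, at 50115.5 bp, and an intronic site near *Galr3*, at 50199.5 bp. None of these 6 sites held a GLI core, and the distances form a continuous range with no gap at 50 kb.

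Members were spread unevenly over the chromosomes. Chromosomes 5 and 8 had 64 members each, 20.1% and 25.2% of their sites, and chromosome 13 had 40, or 21.1%. The 64 of chromosome 8 included clusters of 10, 4 and 3 members in repeated sequence, which are described below. Chromosome 14 had 3 of 129 sites, or 2.33%.

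Some of the largest clusters lay in sequence that occurs many times in the mouse genome. For each site, words of 32 bases were counted in the whole assembly, and a site was called mostly repeated when more than 50% of its words occurred more than once. This held for 53 of 524 members, or 10.1% (95% Wilson interval 7.82% to 13.0%), and for 77 of 3504 other sites, or 2.20% (1.76% to 2.74%). Over all sites on chromosomes 1 to 19 the share was 3.23%. Of the 53 sites, 50 lay in 7 clusters in which they were the majority. Copies of a repeat that lie side by side can meet the rule together, so the difference was not tested. How far apart the copies of a word lay was not measured. How reads that map to several places were treated is not given in the sources used here, and its part in these sites was not tested.

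The clearest case was a cluster of 10 members in 78.4 kb of chromosome 8, from 123546996 to 123625433, on the array of genes for 5S ribosomal RNA, the smallest RNA of the large ribosomal subunit. RefSeq places 43 copies of this gene within the span, and the members overlapped 17 of them, with at least 1 in each member. No site among the 3504 others overlapped an rRNA gene. The annotation of RNA genes was added after these clusters had been seen. All 10 members were counted as promoter sites, GC content was 61.0% to 66.4%, and their words had a median of 49 copies. None held a GLI core, though each held a match to it with up to 1 mismatch.

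The other repeated clusters had different compositions. At the start of the sequenced part of chromosome 9, from 3000301 to 3035785, 12 members of 472 to 2609 bp lay side by side over predicted genes such as *Gm10722* and *Gm10717*. Their GC content was 34.3% to 35.9%, lower than that of any member outside this cluster, 91.5% to 99.0% of their bases were masked as repeats in the assembly, and none had a match to the GLI core even with 1 mismatch. A stretch of 60 bases, chr9:3000333-3000392, occurred unchanged in 10 of the 12.
Start of chromosome 9: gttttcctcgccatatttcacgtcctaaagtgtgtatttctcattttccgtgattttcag

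On chromosome 6, 2 clusters of 7 and 13 members lay between 47650013 and 47831134, near *Ezh2* and over *Pdia4* and *Zfp786*. Of these 20 members, 17 were mostly repeated, at medians of 15 to 18 copies, with GC content from 51.4% to 66.7%, and only 7.16% to 62.9% of their bases were masked. The gene for 4.5S RNA, a small rodent RNA, is annotated in the first of the 2 spans, at 47654921 to 47655094, and no member overlapped it. A stretch of 60 bases, chr6:47668107-47668166, was shared by 9 of the 17.
Chromosome 6 array: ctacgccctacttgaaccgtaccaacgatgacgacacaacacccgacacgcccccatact

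In 2 clusters of chromosome 8 that start at 20296083 and 20647033, all 7 members were mostly repeated, with medians of 5 to 201 copies, and 6 of the 7 shared the 60 bases at chr8:20328597-20328656.
Chromosome 8 repeats: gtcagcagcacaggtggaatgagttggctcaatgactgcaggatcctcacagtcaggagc

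The last of the 7 clusters, over *Sfi1*, *Drg1* and *Eif4enif1* on chromosome 11, had 4 of 5 members mostly repeated, at medians of only 2 to 3 copies. Of the 53 mostly repeated members 1 held a GLI core, an intergenic site in the cluster over *Ephb3*. The 471 members that were not mostly repeated held it in 54 cases, or 11.5% (8.89% to 14.7%).

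**Figure D2:**
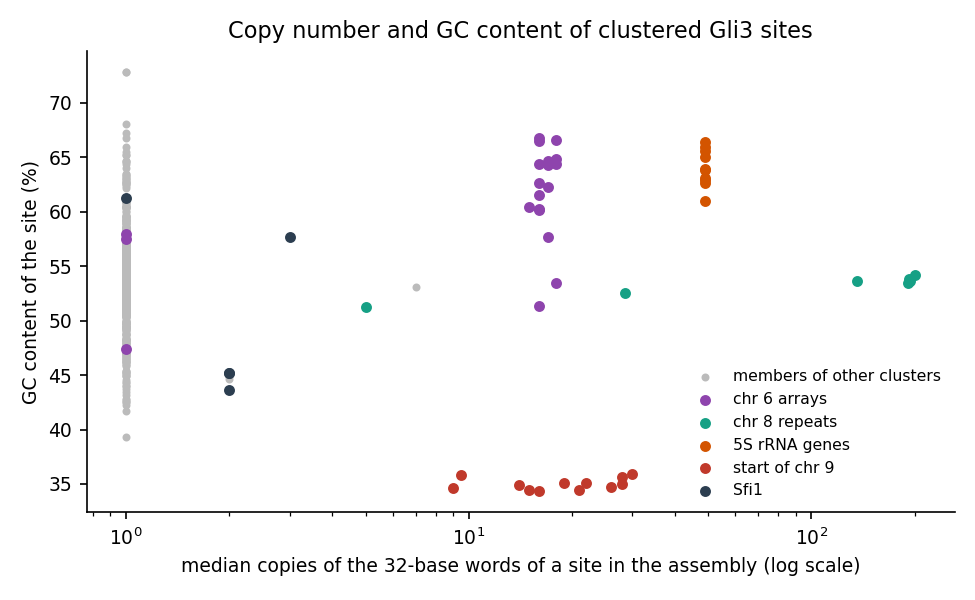
Each point is a clustered Gli3 site, placed by the median number of copies of its 32-base words in the assembly (horizontal, log scale) and its GC content in percent (vertical), with the 7 clusters made mostly of repeated sequence in colour. The 10 sites on 5S rRNA genes sit at 49 copies and above 60% GC, and the 12 sites at the start of chromosome 9 sit below 36% GC.

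The largest cluster lay over *Gse1*, outside repeated sequence. *Gse1* encodes a coiled-coil protein of histone deacetylase complexes, and all 20 members of its cluster lay inside the gene, between chr8:120264574-120561299. Their widths ran from 1081 to 9258 bp with a median of 3341 bp, and neighbouring midpoints were 3.71 to 35.6 kb apart, so that they were distributed along 297 kb rather than gathered at one end. Only 3 of them were promoter sites, 2 of which had their midpoints within 0.1 kb of an annotated *Gse1* start (0.024 and 0.063 kb), and the other 17 were intronic. The cores shown above belonged to 2 of the introns, 118 kb and 3.73 kb upstream of the nearest start. The readthrough model *Gm20388*, 4.43 Mb long, also spans this locus and is not counted as a gene of its own below.

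*Tle3*, which encodes a Groucho corepressor, had 5 members in 47.9 kb, from 11.2 kb upstream of its start to an exonic site inside the gene. The site nearest to its start had its midpoint at 0.015 kb and a GC content of 65.9%. None of the 5 held a core. *Zmiz1*, a coregulator gene, had 3 members, and the promoter site among them held the core.

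**Figure D3:**
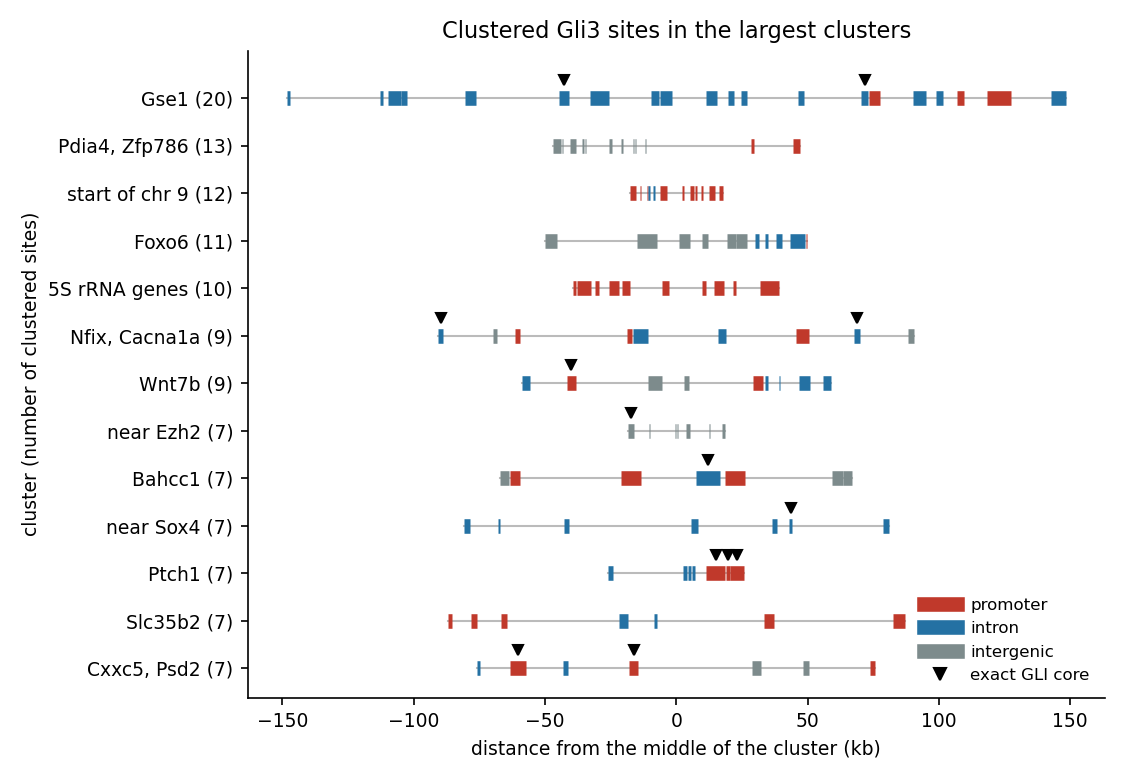
Positions of the clustered Gli3 sites in 13 of the clusters with the most members, in kb from the middle of each cluster (horizontal axis), with 1 row per cluster and its number of members in parentheses. Blocks show the sites to scale, in red for promoter, blue for intron and grey for intergenic, and triangles mark sites with an exact GLI core. The 20 sites in *Gse1* extend over 297 kb, and the 3 core sites of *Ptch1* are adjacent at 1 end.

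Genes of the Hedgehog pathway itself had 3 clusters: 3 of the 21 genes of the pathway list were covered by one, while 12 had any Gli3 site within 50 kb of their start. Over the genome, a cluster covered 212 of 20779 protein-coding genes on these chromosomes, or 1.02%, and 1.94% had a clustered site within 50 kb of their start. The share of all genes with any Gli3 site within 50 kb is not given here, so the count of 12 has no background. In *Ptch1*, 7 members lay between chr13:63523901-63575823, all inside the gene or over its start. Seen from the start of the gene, their midpoints were 0.512, 4.09, 8.64, 17.1, 18.8, 20.3 and 48.8 kb downstream. The 3 nearest the start were promoter sites, counted from different annotated transcripts, and were the ones that held a core. The other 4 were intronic, 1213 to 1881 bp wide, with no core.

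Another 2 clusters lay upstream of *Ptch1* in a stretch without coding genes at the sites. One of 3 members had its midpoints 328.1 to 345.3 kb from the *Ptch1* start, nearest to *Ercc6l2*, and 1 of them held a core. The other, of 4 members 407.1 to 447.1 kb away and nearest to *Hsd17b3*, had 2 members with a core. In all, 6 of the 14 clustered sites within 500 kb of the *Ptch1* start held a core, compared with 12.2% of all sites on chromosomes 1 to 19. This neighbourhood was singled out after its values were seen, and which gene the upstream sites act on was not measured.

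**Figure D4:**
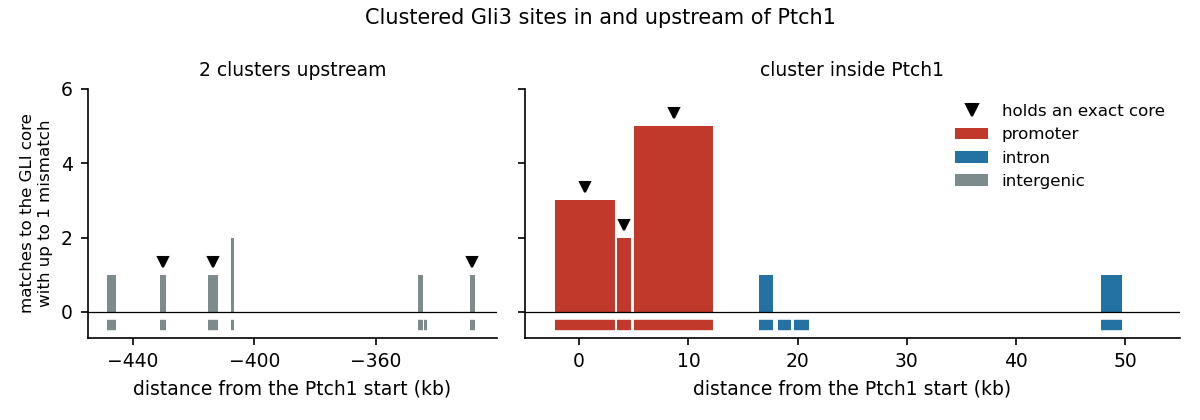
Clustered Gli3 sites by distance from the *Ptch1* start in kb (horizontal axis, positive downstream, with different scales in the 2 panels) and by the number of matches to the GLI core with up to 1 mismatch (vertical axis). The strips under the axis show each site to scale, and triangles mark sites with an exact core, which are the 3 sites nearest the start on the right and 3 of the 7 upstream sites on the left.

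*Boc*, which encodes a co-receptor for Sonic hedgehog, had 4 intronic members and no promoter member. The one nearest to the start, 5.86 kb into the gene, held the core. *Sufu*, which encodes an inhibitor of Gli proteins, shared a cluster of 3 with *Trim8*; its 1 member was a promoter site of an internal transcript, 1.45 kb from that start, and none of the 3 held a core.

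Several clusters covered single genes of signalling and neural identity. *Foxo6*, a forkhead factor gene of 20.3 kb, had 11 members in 99.9 kb, of which 4 were in its introns, 1 was a promoter site 0.63 kb upstream of the start, and 6 were intergenic beyond its 3′ end. None of the 11 held the exact core, and 7 held a match with up to 1 mismatch. *Wnt7b*, a Wnt ligand gene, had 9 members in 118 kb, 2 of them with midpoints inside the gene. The promoter site 0.109 kb from the start held the core. The rest extended to 3 sites in introns of noncoding transcripts, whose nearest coding start was that of *Ppara*. *Fgfr3*, an Fgf receptor gene, had 6 members that filled 53.2% of a span of 39.3 kb, 4 of them between the gene and *Tacc3*, and the 2 cores were in the intronic site.

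Genes of cortical progenitors were covered in 3 of 28 cases, and all coding genes on these chromosomes in 1.02%, a difference that was not tested. *Hes1* and *Hes5*, which are effectors of Notch signalling, had 4 members each. At *Hes5* the 4 members filled 70.1% of 22.0 kb, the densest of all clusters of 3 or more, and the widest, of 8160 bp, covered the start. *Sox2*, a stem cell factor gene, had 4 members on both sides, from 7.76 kb upstream to 42.7 kb downstream of its start. None of these 12 members held the core.

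Among genes of projection neurons, 3 of 24 were covered, beside the same 1.02% of all coding genes, and this was not tested either. *Nfix*, a nuclear factor I gene, held 5 of the 9 members of a cluster that also reached *Cacna1a*, *Ier2* and *Dand5*, in 181 kb. Of its 2 core sites, 1 was intronic in *Nfix* and the other was intronic in *Cacna1a*, a calcium channel gene. *Bcl11a* and *Pou3f3*, which encode transcription factors of cortical neurons, had clusters of 3 without a core.

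The remaining lists had at most 2 covered genes each, while 1.02% of all coding genes on these chromosomes were covered. The lists differ in length, so these counts do not rank them. Of 20 ventral and glial factors 1 was covered, *Sox8*, by a cluster of 5 that included *Tekt4*, *Sstr5* and *Lmf1*, with a core in both sites at *Sox8*. Of 17 cell cycle genes, *Mycn* had 3 members and *E2f1* was in a cluster of 4, both without a core. *Wnt7b* was the 1 covered gene of 32 in the Wnt list, *Fgfr3* was the 1 of 20 in the Fgf list, and *Foxo6* was the 1 of 3 *Foxo* genes on these chromosomes. None of the 25 genes of the BMP and TGF-beta list was covered, although 8 had a site within 50 kb of their start, and none of the 39 *Hox* genes had any site within that distance. A cluster covers a long gene more easily than a short one, and these counts were not tested. The counts of genes with any site within 50 kb also lack a share over all genes, and are a description only.

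Clusters without a gene of these lists included several with many members. *Bahcc1*, a chromatin regulator gene, had 7, with a median width of 4081 bp and 2 cores in an intronic site of 9272 bp. In the *Cxxc5* and *Psd2* cluster on chromosome 18, 2 of 7 members held cores, 1 of them at the start of *Cxxc5*. A cluster over *Slc35b2*, *Hsp90ab1* and 6 other coding genes on chromosome 17 had 7 members, 5 of them promoter sites, and no core. On chromosome 13, 7 members lay in the introns of a long noncoding transcript, *2610307P16Rik*, 142 to 302 kb from the start of *Sox4*, the nearest coding gene, and 1 held the core. This cluster had no promoter member, its GC content was 43.4% to 49.4%, and its sites filled 8.05% of 162 kb.

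Some clusters were wholly intronic. *Macrod1* and *Ephb2*, an Eph receptor gene, had 5 intronic members each, and *Slit1*, which encodes an axon guidance ligand, had 4. None of these 14 held the core. Among other wholly intronic clusters within a coding gene, 1 member held the core in each of *Boc*, *Plpp3* and *Megf11*, and none did in *Sema5b*. *Msi2*, which encodes an RNA-binding protein of neural stem cells, had 5 intronic members and 1 promoter member, *Tcf20* had 3 and 2 with 1 core, and *Draxin*, an axon guidance gene, had 2 and 2. *Cplx2* and the pair *Celsr1* and *Gramd4* had 6 members each, none with a core. Those of the *Cplx2* cluster were 3 promoter and 3 intergenic sites. Those of the pair were 4 intronic sites, 1 exonic site and 1 promoter site.

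Of the 109 clusters of 3 or more, 31 had all members inside 1 coding gene or within 2 kb of it. These held 127 members, 37 at promoters and 90 elsewhere, 86 of the latter in introns. By the genes under their span, 18 of the 109 clusters covered no coding gene, 53 covered 1 and 38 covered 2 or more. There were 12 clusters with promoter members only, such as the one over 10 histone genes on chromosome 13, which held 4, and 24 with nonpromoter members only.

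Promoter sites were less frequent among clustered sites than among other sites. A promoter site had its midpoint within 2 kb of the start of any annotated transcript, which held for 202 of 524 members, or 38.5% (95% Wilson interval 34.5% to 42.8%), and for 1636 of 3504 other sites, or 46.7% (45.04% to 48.3%). Over all sites on these chromosomes it was 45.6%. The odds ratio was 0.72 (two-sided Fisher's exact test over sites, p = 4.96e-04), and with 1 site per cluster it was 0.66 (exact p = 0.018). Introns held 34.4% of members (30.4% to 38.5%) and 26.4% of other sites (24.97% to 27.9%), and intergenic sequence held 24.2% and 25.2%. An intron site was a nonpromoter site outside exons in the body of any annotated gene, coding or noncoding. Midpoints inside a coding gene, with promoter sites counted in, made up 55.7% of members and 57.8% of other sites. Sites of a cluster share their surroundings and the replicates were joined, so that this p and those below measure only counts over sites in this list.

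The GLI core was not detectably more frequent in clustered sites. It was held by 55 of 524 members, or 10.5% (8.15% to 13.4%), and by 438 of 3504 other sites, or 12.5% (11.4% to 13.6%), and the odds ratio was 0.82 (two-sided Fisher's exact test, p = 0.20). Among nonpromoter sites, 35 of 322 members (10.9%) and 292 of 1868 others (15.6%) held it, with an odds ratio of 0.66 (exact p = 0.028). With 1 site per cluster, of which 93 were nonpromoter sites and entered, the same comparison gave 0.72 (exact p = 0.38). Among promoter sites the shares were 9.90% and 8.92% (exact p = 0.60). Within the members, nonpromoter and promoter sites did not differ detectably, with an odds ratio of 1.11 (exact p = 0.77). Here and in comparisons with other sites, leaving out mostly repeated sites meant applying the rule again to the remaining sites, which gave 464 members. Among these the odds ratio was 0.97 (exact p = 1.0). Among the 471 original members that were not mostly repeated, 11.6% of nonpromoter and 11.3% of promoter sites held the core.

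Clustered sites held the core more often than the sequence beside them. Flanks of the same length were taken on each side, starting 1 site length from the edge, and 822 of 1048 were kept after those that touched another site or a gap were left out. Of these, 21 held the core, or 2.55%, so that the share in members was 4.11 times as high (Fisher's exact test, one-sided, p = 1.22e-09). The ratio was 5.03 in promoter members and 3.75 in nonpromoter members. Nevertheless most clusters lacked the core: of the 109 with 3 or more members, 70 had no member with an exact core, 30 had 1, 7 had 2 and 2 had 3. The 62 cores lay a median of 428.5 bp from the midpoint of their site, 39 of them closer to the midpoint than to an edge, and 7 within 100 bp of the midpoint.

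Other motifs differed between clustered and other nonpromoter sites. The motif of SP factors, GGGCGGGG, was held by 92 of 322 nonpromoter members (28.6%) and by 13.2% of 1868 other nonpromoter sites, with an odds ratio of 2.63 (Fisher's exact test, two-sided, with the Benjamini-Hochberg adjustment over 5 motifs, adjusted p = 2.97e-10). The KLF motif, GGGCGTGG, was held by 13.4% and 6.58% (odds ratio 2.19, exact test, adjusted p = 2.12e-04), and the bHLH motif, CAGCTG, by 76.1% and 69.3% (1.41, exact test, adjusted p = 0.018). The LHX/DLX motif, TAATTA, was less frequent, at 36.0% and 45.1% (0.69, exact test, adjusted p = 0.0047), as was the SOX motif, ACAATG, at 55.3% and 61.5% (0.77, exact test, adjusted p = 0.036). With 1 site per cluster, SP (2.41, exact test, adjusted p = 0.0030) and bHLH (2.13, exact test, adjusted p = 0.013) remained past the threshold of 0.05, and the others did not. Without mostly repeated sites the SOX call was lost (0.83, exact test, adjusted p = 0.17), and the other motifs kept theirs. Base composition and width moved with these shares: nonpromoter members had a median GC content of 52.9% and a median width of 2205 bp, against 48.0% and 1831.5 bp in other nonpromoter sites. Their part in the motif shares was not tested.

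Over promoter and nonpromoter sites together, only the LHX/DLX motif passed the test, at 32.1% of members and 39.2% of other sites (odds ratio 0.73, exact test, adjusted p = 0.0086). That call was lost in the central 200 bp of the sites (0.73, exact test, adjusted p = 0.50). It was also lost without mostly repeated sites (0.84, exact test, adjusted p = 0.14), and the bHLH motif then passed, at 80.4% and 69.2% (1.83, exact test, adjusted p = 1.56e-06). In promoter sites none of the 5 motifs passed, and the SP motif was at 47.0% of members and 56.7% of other sites (0.68, exact test, adjusted p = 0.053). The flanks of members held the SP motif in 18.005%, the KLF motif in 11.2% and the bHLH motif in 67.3% of cases, against 35.7%, 16.03% and 73.1% of all members. The order was the reverse for the LHX/DLX motif, at 34.8% of flanks, and for the SOX motif, at 62.9% of flanks and 53.6% of members. The shares of these 5 motifs in flanks were not tested.

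**Figure D5:**
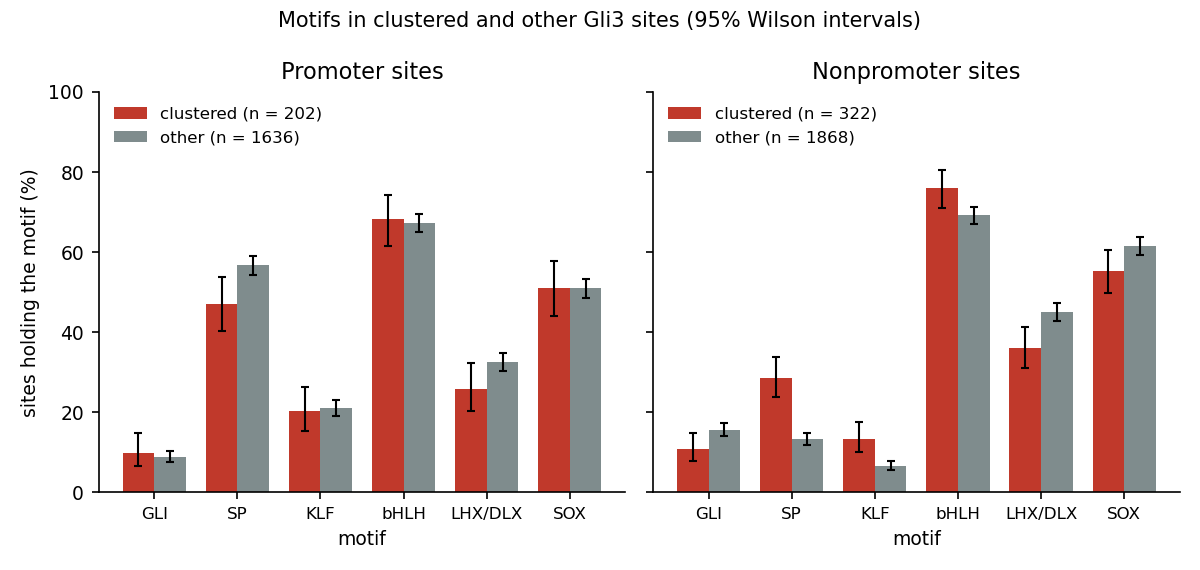
Percent of promoter sites (left) and nonpromoter sites (right) that hold each motif, for clustered sites in red and other sites in grey, with 95% Wilson intervals. The SP motif is in 28.6% of clustered and 13.2% of other nonpromoter sites, while at promoters the order is the reverse, 47.0% and 56.7%.

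Clustered sites also tended to be broad. Their widths had a median of 2251 bp against 1969.5 bp in other sites, and 85 of 524, or 16.2% (13.3% to 19.6%), were 4 kb or wider, against 9.53% (8.60% to 10.5%). In *Gse1*, 9 of 20 members were this broad, and in *Foxo6* 5 of 11. Joining sites within 1 kb of each other left 424 members. These widths were not tested, since they depend on the peak calling.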

How the data were processed

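Cortices of wild-type embryos at embryonic day 15 were fixed, and Gli3 ChIP and input libraries were sequenced as paired ends. According to the submitters' notes and the track heading, the authors mapped 85 bases from each end with Bowtie2 to mm10 and used SAMtools and MACS2. The deposited peaks passed a test of reproducibility between replicates (irreproducible discovery rate, optimal set). Versions and thresholds are not given in the sources used here. The deposited unit is a position: start and end of each peak, with no count, height, score or p-value, so that the depth of each sample, and the precision it gives, are unknown.

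Starts were converted to 1-based coordinates, sequences were read from GRCm38, protein-coding genes and transcripts came from GENCODE M21, and rRNA and tRNA genes came from RefSeq. A promoter reached 2 kb to either side of any transcript's start. A cluster was named by the protein-coding genes that its span overlapped, or by the nearest coding start. Words of 32 bases, taken every 10 bases, were counted on both strands of the assembly, and copies are the median over a site. Shares over sites have 95% Wilson intervals, which cover counting error only, and were compared with Fisher's exact test. Gene lists of 11 kinds with 248 genes were matched by symbol and synonym, and genes off chromosomes 1 to 19 were left out. The rule, the members, the gene lists and the tests were chosen with earlier results of these data known. Named in the text were the clusters with the most members, those covering a listed gene, those with 3 or more core-holding members, the coding genes with the most member midpoints inside, and the sites nearest the threshold; other genes were named after their values were seen. The results of 1 cluster, and 1 sequence, are not reported here. Alternatives varied the distance, the number of neighbours, the promoter definition, the motif match and the sites included, and those without mostly repeated sites (for the other motifs, for the GLI core against flanks, and for the GLI core in nonpromoter against promoter members), and those on nonpromoter sites combined with another choice, were added after seeing the data. Where mostly repeated sites were left out, the rule was applied again to the remaining sites, except against flanks, where 471 original members were kept. The functions were tested on simulated positions and sequences. Python 3.11.15, pandas, numpy, scipy, pysam and samtools were used.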

Additional observations from a re-analysis of the deposited data

How the results depend on the processing

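The number of members depends on the rule: 266 sites in 77 clusters at 25 kb, 956 in 261 at 100 kb, 1393 in 532 with 1 other site required, and 248 in 57 with 3. The lower promoter share of clustered sites passed the test under every alternative run, with odds ratios from 0.54 to 0.82, and the excess of the GLI core over flanks also passed under each (ratios 1.29 to 5.03, where no flank held a core in the central 200 bp and the ratio was set against a floor of 3). For the GLI core in clustered against other sites, the odds ratio was 1.12 at promoter sites and 0.66 at nonpromoter sites, where it was 0.66 also without mostly repeated sites. The ratio of nonpromoter to promoter members turned to 0.89 at 25 kb and to 0.97 when the rule was applied again without mostly repeated sites. At promoter sites the odds ratios of the motifs were 0.68 for SP, 0.95 for KLF, 0.72 for LHX/DLX and 1.00 for SOX. At nonpromoter sites they were 2.63 for SP, 2.19 for KLF, 1.41 for bHLH and 0.77 for SOX. Without mostly repeated sites these nonpromoter values became 2.64 for SP, 1.69 for KLF, 2.03 for bHLH and 0.83 for SOX. With 1 site per cluster, of which 93 were nonpromoter sites and entered, they were 2.41 for SP, 2.13 for bHLH and 0.77 for LHX/DLX. Without mostly repeated sites of either class, bHLH was at 1.83, LHX/DLX at 0.84 and SOX at 1.01. In the central 200 bp LHX/DLX was at 0.73, and none of the 5 motifs passed there (exact test, adjusted p = 0.50 for each). Of 83 values under alternatives, 52 kept their direction and their side of the threshold or, for counts, stayed within 1.5 times. The causes of the changes were not tested. No paired analysis was possible because the authors joined the replicates in 1 list. Without heights or depth, strong and weak sites could not be told apart.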
